A study of Homo sapiens with 2 samples.

Results

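Eph receptors are the largest family of receptor tyrosine kinases, and ephrins are their ligands, which stay bound to the membrane of the neighbouring cell. Ephrin-A proteins are held by a lipid anchor and mainly bind EphA receptors, whereas ephrin-B proteins cross the membrane and mainly bind EphB receptors. Contact between cells starts a forward signal in the cell that carries the receptor and a reverse signal in the cell that carries the ephrin, and both act on the actin cytoskeleton and adhesion. In breast cancer cells EPHA2 is the family member best known for a part in motility and invasion.

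The genes described are 10 Eph and ephrin genes: the receptors EPHA2, EPHA4, EPHB2, EPHB3 and EPHB4 and the ligands EFNA1, EFNA4, EFNA5, EFNB1 and EFNB2. They were listed by name, taking those present among the 12918 genes of the table, with earlier results of these data known. The study sequenced RNA of MDA-MB-231, a human triple-negative breast cancer cell line long in use, grown in L15 medium with serum, 48 h after transfection. One library came from cells given a Smart Silencer (a commercial blend of antisense oligonucleotides with siRNAs) against the long noncoding RNA THAP7-AS1, and the other from cells given the negative control si-NC. The silenced library is headed si-v and was assigned by elimination, so each direction below depends on that assignment, and 0 of the 3 annotated THAP7-AS1 transcripts were listed to check it. With 1 library per group no difference has a replicate check, and no p-value is given.

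Levels are FPKM, a fragment number per kilobase of transcript and per unit of sequencing depth, summed over the listed transcripts of a gene. The files give no read counts, and the depth was estimated from the smallest values at about 8330000 fragments on listed transcripts in the si-v library and 7840000 in the si-NC library. The intervals below rest on these approximate fragments and cover counting error only. The markers VIM, CD44, AXL and MSN of this mesenchymal-like line stood at 114 to 373 FPKM in the si-v library and at 152 to 344 FPKM in the si-NC library. ESR1 was listed at 0 in both libraries and CDH1 stood at 0.122 and 0.0845 FPKM, while EPCAM stood at 12.8 and 11.3 FPKM and ERBB2 at 17.4 FPKM in the si-v library and 4.65 FPKM in the si-NC library. No transcript of the blood and endothelial markers PTPRC, PECAM1 and CDH5 was listed.

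Several of these genes were listed with more than 1 transcript. The values of single transcripts, such as those of EFNA5, EFNA4, EPHB4 and EPHB2, depend on how reads were divided between them. In EPHB4 the full-length form held most of the gene's sum, 85.2% in the si-v library and 83.8% in the si-NC library. The sequences below show where the annotated transcripts part, 5′ to 3′ and read from the GENCODE 29 transcripts on the GRCh38 build. In EFNA5 one transcript lacks the first exon and begins 5 bases before the second. The capitals mark the start of the second exon in the form with exon 1 (chr5:107427480-107427509, minus strand) and the 5 added bases in the form without it (chr5:107427510-107427514, minus strand).
EFNA5 form with exon 1: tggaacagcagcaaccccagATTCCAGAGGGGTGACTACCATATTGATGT
EFNA5 form without exon 1: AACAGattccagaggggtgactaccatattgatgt
In EFNA4 the listed transcripts end in different coding exons, whose first bases are in capitals (chr1:155068853-155068882 for the upstream end and chr1:155069019-155069048 for the downstream end, plus strand).
EFNA4 form with the upstream end: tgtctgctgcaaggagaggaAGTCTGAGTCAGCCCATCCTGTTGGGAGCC
EFNA4 form with the downstream end: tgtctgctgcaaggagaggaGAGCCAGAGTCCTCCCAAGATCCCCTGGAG
In EPHB4 an exon-skipping transcript leaves out 3 exons of the full-length one, and the capitals mark the first bases after the shared exon (chr7:100820267-100820296 in the full-length form and chr7:100817328-100817357 in the exon-skipping form, minus strand).
EPHB4 full-length form: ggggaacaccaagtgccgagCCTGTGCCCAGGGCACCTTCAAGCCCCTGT
EPHB4 exon-skipping form: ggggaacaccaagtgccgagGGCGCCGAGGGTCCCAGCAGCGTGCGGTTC
In EPHB2 one transcript has 3 extra bases, in capitals (chr1:22896411-22896413, plus strand), that the long and the short form lack.
EPHB2 form with the extra bases: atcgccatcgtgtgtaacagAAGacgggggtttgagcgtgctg
EPHB2 long form: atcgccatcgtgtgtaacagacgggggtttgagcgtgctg

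The question addressed is whether these messenger RNAs differ in level after the silencer. Among the 8 members that reached 1 FPKM in at least 1 library, EPHB4 was the only one to differ by 1.5-fold or more with a pseudocount of 1. It was higher in the si-v library, at 6.69 FPKM against 3.59 FPKM in the si-NC library. Its ligand gene EFNB2 stood at 12.1 and 8.83 FPKM. EPHA2, the most abundant member, was nearly level at 42.5 FPKM in the si-v library and 43.8 FPKM in the si-NC library. The log2 ratio, log2((si-v + 1)/(si-NC + 1)), ran from -0.09 to 0.75 over these 8 members, with a median of 0.11 beside 0.00 over all 11046 genes past that filter.

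Of those 8 members, 1 was higher and 0 were lower by 1.5-fold. Over all genes past the filter, 9.82% were higher and 8.91% lower by that much, so 1 of 8 (12.5%) is close to the 18.7% of all genes that differed by 1.5-fold either way. At 2-fold 0 members differed, where 4.86% of all genes did, 2.37% higher and 2.49% lower. Without the pseudocount EFNB1 was also past 1.5-fold, at 1.60 times. The share of all genes past 1.5-fold without the pseudocount was not taken, so that call has no like share beside it. EFNA1 and EPHB3 did not reach 1 FPKM in either library and are given below by their values, EPHB3 at 9.21 times the si-NC level on few fragments.

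**Figure D1:**
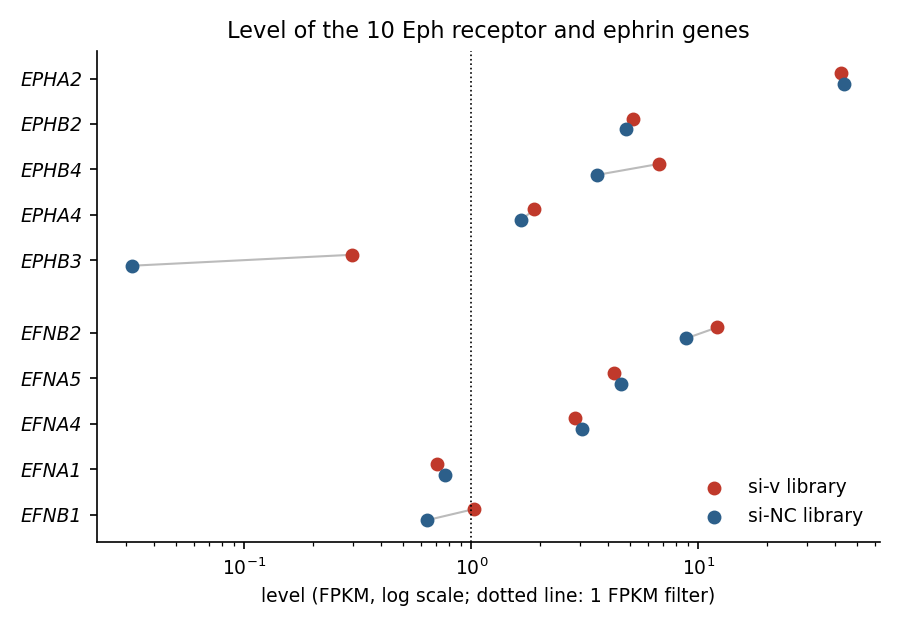
Level of each of the 10 genes in FPKM on a log axis, receptors above and ephrins below, with the si-v library in red, the si-NC library in blue and the 1 FPKM filter dotted. EPHA2 lies far to the right in both libraries, at 42.5 and 43.8 FPKM. EPHB4, EFNB2, EFNB1 and EPHB3 lie further right in the si-v library, and so, by less, do EPHA4 and EPHB2.

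Receptors came first in abundance through EPHA2, which signals on binding ephrin-A ligands and is cut by membrane proteases. It made up 75.2% of the summed FPKM of the 5 receptors in the si-v library and 81.3% in the si-NC library. Its values rest on about 2006 fragments in the si-v library and 1908 in the si-NC library. The log2 ratio was -0.04, with a 95% counting interval of -0.13 to 0.05. The single listed transcript is the 1 coding transcript annotated.

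EPHA4, a receptor that binds ligands of both ephrin classes, stood at 1.89 FPKM in the si-v library and 1.65 FPKM in the si-NC library (log2 ratio 0.13). On approximate fragments, 81.4 and 75.6, the log2 ratio was -0.01, with a counting interval of -0.49 to 0.45. The surplus in FPKM came from the short transcript, at 0.503 and 0.224 FPKM on no more than about 3 fragments in each library. The longer forms were level. The middle one stood at 0.785 FPKM in the si-v library and 0.793 FPKM in the si-NC library, and the longest at 0.607 and 0.632 FPKM.

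EPHB2, which binds ephrin-B ligands and also ephrin-A5, stood at 5.17 FPKM in the si-v library and 4.78 FPKM in the si-NC library (log2 ratio 0.09). Its long form, which carries a long untranslated end and a different last coding exon, was at 2.93 and 2.34 FPKM. The form with the extra bases was at 1.69 FPKM in the si-v library and 1.87 FPKM in the si-NC library, and the short form at 0.545 and 0.570 FPKM. The long form has 10816 bases and the form with the extra bases 3677. By fragments the gene held about 472 fragments in the si-v library and 373 in the si-NC library, a log2 ratio of 0.22 with a counting interval of 0.03 to 0.42.

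EPHB4 is the receptor of ephrin-B2, a pair best known for marking veins and arteries as vessels form. Its 6.69 FPKM in the si-v library and 3.59 FPKM in the si-NC library rest on about 338 and 167 fragments. The log2 ratio was 0.75, and without the pseudocount, on fragments, it was 0.90 with a counting interval of 0.63 to 1.18. Of all genes past the filter, 5.46% had a ratio as high or higher. The gene's transcripts have a GC content of 62.6%, and after the ratio's trend with GC and length was taken out the log2 ratio was 0.58, just short of 1.5-fold.

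Both expressed forms of EPHB4 were higher in the si-v library. The full-length form stood at 5.70 FPKM against 3.004 FPKM in the si-NC library, and the exon-skipping form at 0.989 against 0.582 FPKM. The exon-skipping form was below 1 FPKM in both libraries, on about 44 and 24 fragments. Its log2 ratio was 0.33 with the pseudocount, and its counting interval without it was 0.01 to 1.54. This second form leaves out 3 exons of 614 bases, which is not a multiple of 3, so that its annotated coding part is 918 bases where that of the full-length form is 2961. The full-length form held a similar share of the gene in both, 85.2% in the si-v library and 83.8% in the si-NC library. EPHB4 overlaps the gene SLC12A9 on the other strand, which stood at 0.241 FPKM in the si-v library and 0.472 FPKM in the si-NC library. As the strand setting is not given, reads of the overlap cannot be told apart, and their part in the values of EPHB4 was not tested.

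EPHB3, another ephrin-B receptor, was very low, at 0.297 FPKM in the si-v library and 0.0322 FPKM in the si-NC library. These levels stand for about 15 fragments and 1 or 2 fragments. The 95% counting interval of the log2 ratio without pseudocount was 1.09 to 9.19 with 1 fragment in the si-NC library and 0.69 to 5.96 with 2. With the pseudocount the log2 ratio was 0.33. The 3 EphB receptors together summed to 12.2 FPKM in the si-v library and 8.40 FPKM in the si-NC library. Of these sums EPHB4 made up 6.69 and 3.59 FPKM, and EPHB2 5.17 and 4.78 FPKM. The 2 EphA receptors summed to 44.4 and 45.5 FPKM.

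**Figure D2:**
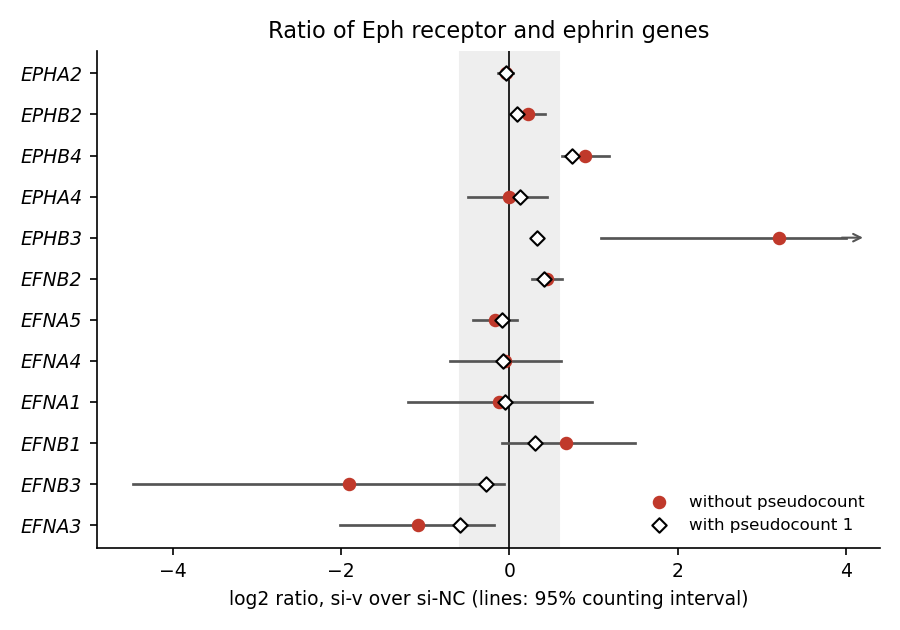
Log2 ratio of the si-v over the si-NC library for the 10 genes, with EFNA3 and EFNB3 below them. Circles are ratios of approximate fragments without pseudocount, and diamonds are ratios of FPKM with a pseudocount of 1. Lines are 95% counting intervals on the fragments, and the grey band is within 1.5-fold. The intervals of EPHB4, EPHB3, EFNB2 and EPHB2 lie above 0, and those of EFNA3 and EFNB3 lie below 0. That of EPHB3 runs past the axis (arrow) to 9.19. The intervals cover counting error only. The share of all genes with an interval off 0 was not taken, so these have no like share beside them.

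Among the ligands, EFNB2 was the most abundant in both libraries. Ephrin-B2, the partner of EPHB4, also binds EPHB2 and EPHA4. It stood at 12.1 FPKM in the si-v library and 8.83 FPKM in the si-NC library, from 1 listed transcript. The log2 ratio was 0.41, below 1.5-fold, and on about 640 and 433 fragments it was 0.45 with a counting interval of 0.27 to 0.63. Of all genes past the filter, 18.0% had a ratio as high or higher. Within a library, EFNB2 stood at 1.80 times the level of EPHB4 in the si-v library and at 2.46 times in the si-NC library.

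EFNB1, another ephrin-B ligand, stood at 1.02 FPKM in the si-v library and 0.641 FPKM in the si-NC library. On approximate fragments, 40.4 and 23.3, the log2 ratio without pseudocount was 0.68, and its counting interval of -0.09 to 1.49 includes no change. With the pseudocount it was 0.30. It passed the filter only through the si-v library, in which it is higher. Summed, EFNB1 and EFNB2 stood at 13.1 FPKM in the si-v library and 9.47 FPKM in the si-NC library, and EFNA1, EFNA4 and EFNA5 at 7.79 and 8.42 FPKM. EFNB2 made up 92.2% of the ephrin-B sum in the si-v library and 93.2% in the si-NC library. The ephrin sums leave out EFNA3 and EFNB3, which are given further on.

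The ephrin-A ligands EFNA1, EFNA4 and EFNA5 were close in level between the libraries. EFNA5, whose protein binds EphA receptors and EPHB2, stood at 4.23 FPKM in the si-v library and 4.57 FPKM in the si-NC library, a log2 ratio of -0.09. On fragments its counting interval was -0.44 to 0.10, which includes no change. EFNA4 stood at 2.85 FPKM in the si-v library and 3.08 FPKM in the si-NC library (log2 ratio -0.08). On fragments, without pseudocount, its log2 ratio was -0.05, with an interval of -0.70 to 0.62. EFNA1, a ligand of EPHA2 that tumour necrosis factor can induce in endothelial cells, stood at 0.705 and 0.768 FPKM on about 16 fragments in each library, with an interval of -1.21 to 0.98. EPHA2 stood at 60.3 times the level of EFNA1 in the si-v library and at 57.1 times in the si-NC library.

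Behind the level sum of EFNA5 its transcripts went opposite ways. The form with exon 1 stood at 1.83 FPKM in the si-v library and 3.23 FPKM in the si-NC library, and the form without it at 1.92 and 0.924 FPKM. The form with exon 1 held 43.2% of the gene's FPKM in the si-v library and 70.6% in the si-NC library. Another form, without an exon of 81 bases, was at 0.481 and 0.423 FPKM. Of the 4933 bases of the form without exon 1, 4928 are shared with the other, as the sequences above show at the junction, so the division between them rests on reads from the first exon and the start of the second, and the counting intervals of single transcripts do not cover it.

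The transcripts of EFNA4 also lay on opposite sides of 0, but within counting error. Its form with the upstream end stood at 2.40 FPKM in the si-v library and 1.87 FPKM in the si-NC library, and the form with the downstream end at 0.449 and 1.20 FPKM. The downstream end rests on about 6 fragments in the si-v library and 14 in the si-NC library, and the counting interval of its log2 ratio ran from -3.004 to 0.13, while that of the upstream end ran from -0.41 to 1.14. Over all members, 10 of 20 listed transcripts reached 1 FPKM in at least 1 library, and of these 2 were higher by 1.5-fold, full-length EPHB4 and EFNA5 without exon 1, and 1 was lower, EFNA4 with the downstream end. The EFNA5 form passed only through the si-v library and the EFNA4 form only through the si-NC library, in each case the library in which it is higher. Among all single transcripts past that filter 39.8% differed by as much, 21.2% higher and 18.7% lower.

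**Figure D3:**
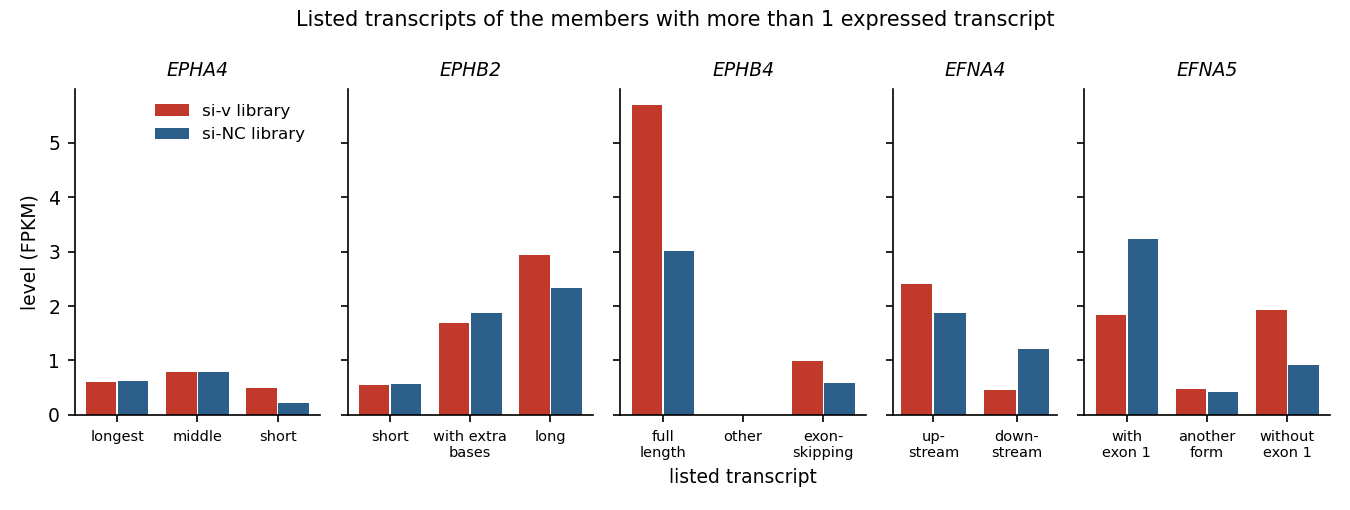
Level in FPKM of each listed transcript of EPHA4, EPHB2, EPHB4, EFNA4 and EFNA5, the si-v library in red left of the si-NC library in blue. Both expressed EPHB4 forms are higher in the si-v library, while the EFNA5 form with exon 1 is lower and the form without it higher there, at 1.83 and 1.92 FPKM against 3.23 and 0.924 FPKM.

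EPHA2 led the order of levels in both libraries, followed by EFNB2, and EPHB3 had the lowest level in both. EPHB4 came next after EFNB2 in the si-v library, with a counting interval of 6.001 to 7.45 FPKM that met neither neighbour's, and was followed by EPHB2, EFNA5, EFNA4, EPHA4, EFNB1 and EFNA1. In the si-NC library EPHB2 and EFNA5 stood between EFNB2 and EPHB4, with EPHB4 at an interval of 3.07 to 4.18 FPKM that overlapped those of EFNA5 (4.01 to 5.18) and EFNA4 (2.203 to 4.199). Below these came EPHA4, EFNA1 and EFNB1. The intervals of EFNB1 and EFNA1 overlapped in each library, as did those of EPHB2 and EFNA5 and those of EFNA5 and EFNA4. In the si-v library those of EFNA4 and EPHA4 and of EFNA1 and EPHB3 overlapped too. The order within these pairs was not set apart by counting error.

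**Figure D4:**
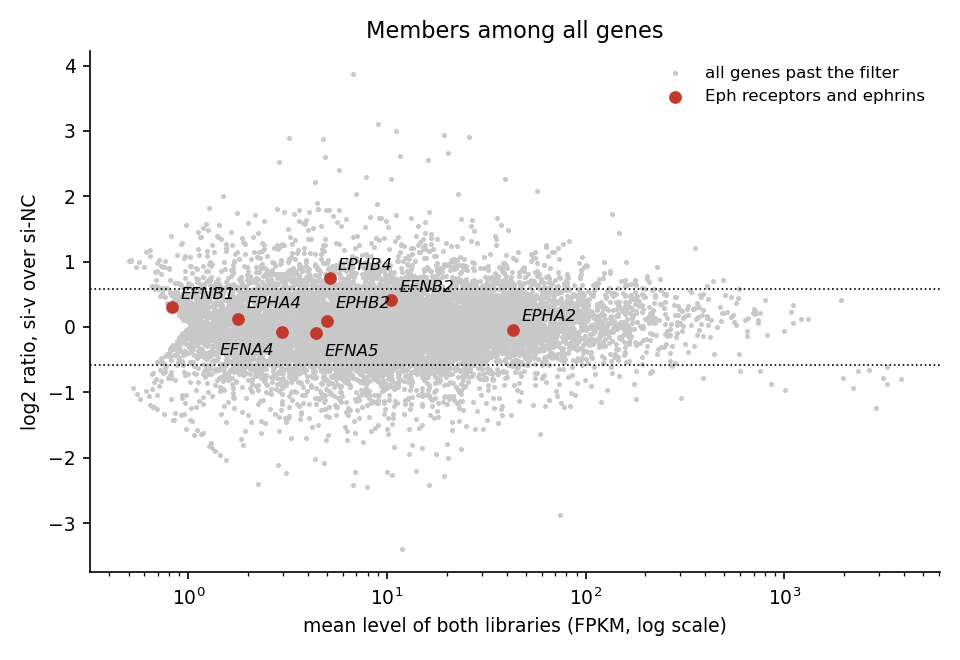
Log2 ratio of the si-v over the si-NC library against the mean level in FPKM (log axis) for the 11046 genes past the filter in grey, with the 8 members past it in red and dotted lines at 1.5-fold. EPHB4, at 0.75, is the only member outside the lines, and all 8 lie among the grey points.

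Of the 12 other genes of the family, 5 were in the table and 1 passed the filter. This was EFNA3, an ephrin-A gene that lies between EFNA4 and EFNA1 on chromosome 1, at 0.807 FPKM in the si-v library and 1.71 FPKM in the si-NC library. It passed only through the si-NC library, in which it is higher. Its log2 ratio was -0.58, just short of 1.5-fold, and -0.79, past it, after the trend with GC and length was taken out. Without the pseudocount it stood at 0.473 times the si-NC level. On about 17 and 33 fragments the log2 ratio without pseudocount was -1.08, with a counting interval of -2.01 to -0.19. Its neighbours EFNA1 and EFNA4 had log2 ratios of -0.05 and -0.08. EFNB3 stood at 0.0851 and 0.320 FPKM, about 3 and 11 fragments, with an interval of -4.47 to -0.07. EPHA1 was listed at 0.0498 FPKM in the si-v library and at 0 in the si-NC library, and EPHA10 and EPHB6 were listed at 0 in both. EPHA3, EPHA5, EPHA6, EPHA7, EPHA8, EPHB1 and EFNA2 had no listed transcript.

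The proteins through which Ephs and ephrins act were described in 5 lists of 73 genes in all. Of the 62 that passed the filter, 30 had a ratio above and 32 a ratio below 0, with a median log2 ratio of -0.01 beside 0.00 over all genes. At 1.5-fold 3 were higher and 4 lower, 11.3% beside the 18.7% of all genes, and at 2-fold 0 differed.

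Of the adaptors and phosphatases that bind activated receptors 2 of the 19 genes past the filter were higher and 1 was lower by 1.5-fold, with a median of -0.02. AFDN, the gene of afadin, a junction scaffold that can bind Eph receptors, stood at 42.6 FPKM in the si-v library and 21.8 FPKM in the si-NC library. Its log2 ratio was 0.94, but 0.58 on fragments and 1.68 for its most abundant transcript. GRB2, the adaptor that links receptors to RAS, stood at 33.2 and 16.9 FPKM (0.93, with 1.08 on fragments and 1.79 for its most abundant transcript). The adaptor gene CRK lay the other way at 11.2 FPKM in the si-v library and 21.4 FPKM in the si-NC library. Its log2 ratio was -0.88, with -0.86 on fragments and -1.73 for its most abundant transcript. RASA1, a Ras GTPase-activating protein that binds EPHB receptors, stood at 18.2 and 24.9 FPKM (-0.43).

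In the list of SRC, ABL and focal adhesion kinases 0 of 8 genes differed by 1.5-fold, and the median was -0.03. CSK, the kinase that holds SRC family members inactive, stood at 18.7 FPKM in the si-v library and 13.7 FPKM in the si-NC library (0.42). Its log2 ratio was 0.57 on fragments, 0.90 for its most abundant transcript and 0.21 with the trend with GC and length removed. ABL2 stood at 24.5 and 22.6 FPKM (0.11), YES1 at 29.1 and 33.0 FPKM (-0.18, but 0.32 for its most abundant transcript), and FYN at 11.6 and 16.0 FPKM (-0.43).

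Of the exchange factors and GTPase regulators 0 of 15 were higher and 2 were lower by 1.5-fold, with a median of -0.04. These were the Rac exchange factors TIAM2, at 0.707 FPKM in the si-v library and 2.32 FPKM in the si-NC library (-0.96), and TIAM1, at 1.48 and 3.76 FPKM (-0.94). TIAM2 passed the filter only through the si-NC library, in which it is higher. On fragments the log2 ratio with the pseudocount was -1.08 for TIAM2 but -0.33 for TIAM1, whose most abundant transcript was level at -0.07. At the upper end ARHGEF19, which passed only through the si-v library, stood at 1.37 and 0.701 FPKM (0.48) and ARHGEF5, an exchange factor of the ephexin family, at 4.65 and 3.30 FPKM (0.40). ARHGEF19 rests on about 26 fragments in the si-v library and 16 in the si-NC library. Its counting interval of -0.37 to 1.58 includes no change.

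Partners of ephrin reverse signalling had the lowest list median, -0.28, with 4 of 11 genes above and 7 below 0. DVL2, a Dishevelled protein, stood at 14.5 FPKM in the si-v library and 9.21 FPKM in the si-NC library (0.61, but 0.43 after the trend with GC and length was taken out), and STAT3 at 24.5 and 19.8 FPKM (0.29). PARD6B, a cell polarity protein of the family that binds ephrin-B1 in Xenopus, stood at 4.09 and 7.45 FPKM (-0.73, but -0.54 with that trend removed). CAV1, the caveolin gene, stood at 83.7 and 118 FPKM (-0.49). At 1.5-fold 1 gene of the list was higher and 1 lower.

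Among the proteases that cut Ephs and ephrins 0 of 10 differed by 1.5-fold, with a median of 0.06. MMP14, the membrane-bound matrix protease that cuts EPHA2, stood at 80.6 FPKM in the si-v library and 55.3 FPKM in the si-NC library (0.54). RHBDL2, a rhomboid protease that can cut ephrin-B3, stood at 12.1 and 9.63 FPKM (0.30). ADAM10, the metalloprotease that releases ephrins from the cell surface, stood at 15.0 and 21.4 FPKM (-0.49), and NCSTN, a subunit of gamma-secretase, at 17.1 and 21.8 FPKM (-0.33, but -0.06 on fragments).

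**Figure D5:**
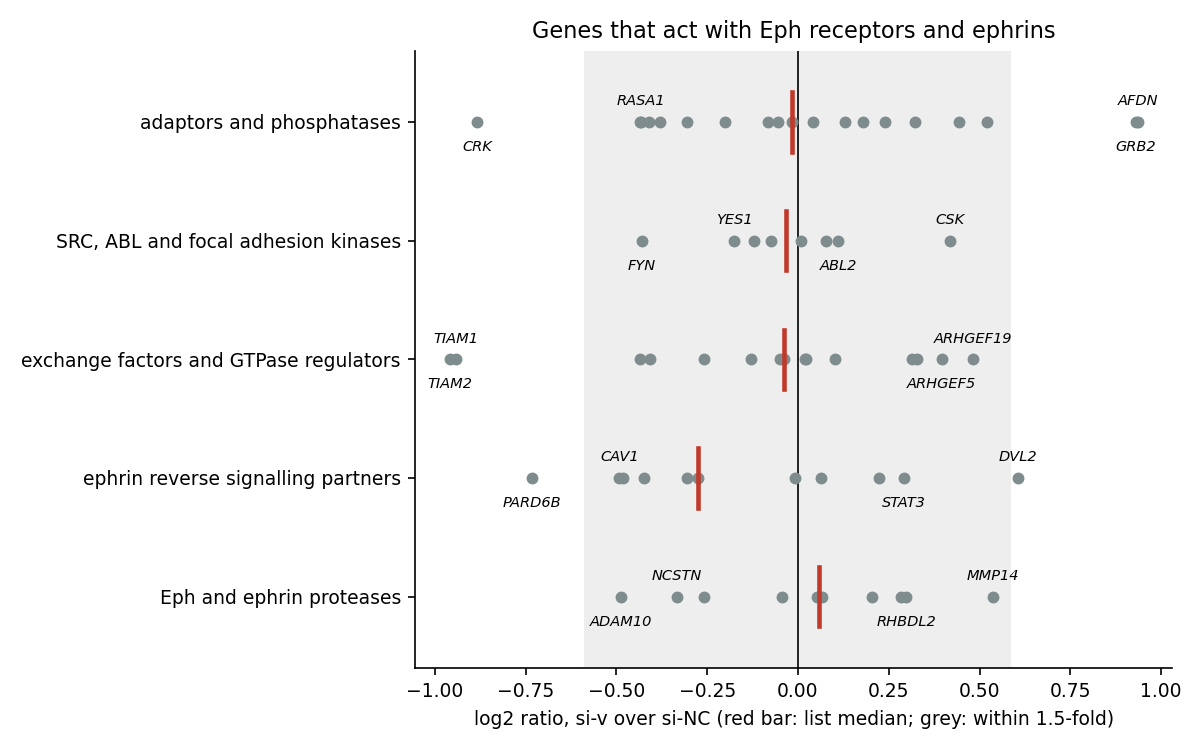
Log2 ratio of the si-v over the si-NC library for the genes past the filter in each of the 5 lists (points), with the list medians as red bars and the grey band within 1.5-fold. AFDN and GRB2 lie farthest right at 0.94 and 0.93, TIAM2 and TIAM1 farthest left at -0.96 and -0.94, and the medians run from -0.28 to 0.06.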

How the data were processed

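The authors' deposited table gives 1 value per transcript and library, read here as FPKM because its header names no unit. Per the submitters' processing notes, cutadapt, HISAT2 2.0.5 and StringTie were used on hg19; no source used here gives the annotation, the strand setting or the filters. Of 39605 transcripts, 99.5% matched GENCODE 29 without version, which is on GRCh38 and served for symbols, lengths, GC content and sequences, so lengths may differ from the authors'. FPKM was summed per gene, genes of at least 1 FPKM in 1 library were kept, and ratios used a pseudocount of 1, which understates differences of low genes. The worth of 1 fragment was the peak of low values times length, 84.0 in the si-v and 91.0 in the si-NC library. Counting intervals are exact at 95% (Clopper-Pearson for ratios, Poisson for levels) on these fragments rounded to whole numbers; they do not cover how reads were split between transcripts. No test was run, since each group is 1 library, and the steps were tested on simulated data. Members and lists were chosen with earlier results of these data known. Named genes were all family members and, of each signalling list, the 2 highest and 2 lowest ratios and any gene at 2-fold. One further list of signalling genes is not reported here. Python 3.11.15, pandas 2.3.3 and SciPy 1.17.1 were used.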

Additional observations from a re-analysis of the deposited data

How the results depend on the processing

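Each log2 ratio of a member was recomputed under 6 or 7 other settings: other pseudocounts, 2 scalings, the most abundant transcript, fragments per gene and a ratio freed of its trend with GC and length. EPHB4 ranged from 0.58 to 0.88 and EFNB2 from 0.35 to 0.48. EFNB1 ranged from 0.14 to 0.60, EPHB3 from 0.31 to 1.59 and EPHA2 from -0.19 to -0.03. EFNA5 ranged from -0.58, for its most abundant transcript, to 0.03 and EFNA4 from -0.27 to 0.25. The count of members 1.5-fold higher was 2 with a pseudocount of 0.1, 0 with the trend removed and 0 at 2-fold, against 1 as reported, and the count lower was 0 throughout. The share of all genes at 1.5-fold was not taken with that pseudocount or with the trend removed, so those member counts have no like share beside them. Genes 2-fold higher and lower numbered 486 and 473 with a pseudocount of 0.1, and 683 and 706 for the most abundant transcript only, against 262 and 275; at 1.5-fold they numbered 1085 and 984. The median over all genes was -0.053 when scaled without mitochondrially encoded genes and -0.013 for the most abundant transcript only. The median of the ephrins, 0.11 over the 4 past the filter, was -0.052 over all 5 with no filter, and a filter of 5 FPKM left EFNB2 alone, at 0.41. The median of the reverse signalling partners ran from -0.32 to -0.12. The medians of the kinases, exchange factors and proteases, close to 0 as reported, took either sign. Why values moved was not tested. No paired analysis was possible because each group has 1 library. Depth limits EPHB3, EFNA1, EFNB1, EFNA3, EFNB3, EFNA4 and ARHGEF19, each with fewer than 50 fragments per library.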
